A study of Rattus norvegicus with 9 samples.

Results

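The 10 genes described here, known as markers of Kupffer cells, the resident macrophages of the liver, were followed through 9 arrays of laser-microdissected rat liver. They are Marco, Clec4f, C1qa, C1qb, C1qc, Cd68, Vsig4, Cd163, Csf1r and Cd4, listed by gene symbol and not by their values here. They are 10 of the 18166 genes with a probe set named by a single symbol, and all 10 are among the 15793 genes bright enough to be tested. The arrays came from female F344 rats whose hepatocytes had been kept from dividing by retrorsine, a plant alkaloid given in 2 doses of 30 mg/kg that were 2 weeks apart, before part of the liver was removed 4 weeks later. The regrowing liver then holds clusters of SHPCs, small progenitor cells that look like hepatocytes, which were cut from frozen sections 7 µm thick. The first group, 3 arrays, was SHPC clusters of livers that had received Thy1+ cells from DPPIV+ donors through the spleen of DPPIV- recipients. The second, 3 arrays, was SHPC clusters of livers without transplantation. The third, 3 arrays, was hepatocytes beside SHPC clusters in livers without transplantation, so that every group carried retrorsine and hepatectomy and none was normal liver. For the hepatocyte arrays a description label speaks of transplanted SHPCs, and the cell type label was followed. The sources used here give neither ages nor the number of animals, and arrays of a group may share an animal, in which case p-values are too small.

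Kupffer cells line the liver sinusoids, where they take up bacteria, worn-out red cells and other particles from the blood. They do so with scavenger receptors, lectins and complement receptors, and they are themselves a main source of the complement protein C1q. Their survival depends on the receptor encoded by Csf1r, and their identity on transcription factors that include PU.1, which binds a purine-rich sequence, and the MAF family. A region cut from a section holds the macrophages that lie between its hepatocytes, and in such material fewer macrophages and less RNA per macrophage cannot be told apart.

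The promoters of 3 members are shown because these genes carry the results: Marco was the only member past the test in any comparison, and C1qa and C1qb, which encode chains of the same protein, parted on some arrays. Each is the 250 bases before the start in the RefSeq table of assembly GRCr8, read 5′ to 3′ on the gene's own strand. Marco lies at chr13:34201256-34201505, C1qa at chr5:154419934-154420183 and C1qb at chr5:154407828-154408077, all on the minus strand. Marco's listed start lies inside the gene's annotated span, since a longer transcript is annotated too. Capitals mark matches on either strand to GAGGAA, a PU.1-type box, to GGAAGT, an ETS core, and to TGCTGA, the core of a MAF recognition element; GAGGAA and GGAAGT can overlap, and did not in these 3 sequences.
Marco: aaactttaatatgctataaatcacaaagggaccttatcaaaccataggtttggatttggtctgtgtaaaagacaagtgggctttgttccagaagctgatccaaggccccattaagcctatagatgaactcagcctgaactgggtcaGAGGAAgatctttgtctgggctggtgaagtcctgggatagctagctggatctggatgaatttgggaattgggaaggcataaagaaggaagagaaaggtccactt
C1qa: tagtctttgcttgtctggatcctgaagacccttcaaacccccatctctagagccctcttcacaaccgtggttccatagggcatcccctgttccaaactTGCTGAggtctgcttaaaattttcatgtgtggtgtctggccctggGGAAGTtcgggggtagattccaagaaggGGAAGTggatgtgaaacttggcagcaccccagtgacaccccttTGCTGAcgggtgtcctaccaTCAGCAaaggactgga
C1qb: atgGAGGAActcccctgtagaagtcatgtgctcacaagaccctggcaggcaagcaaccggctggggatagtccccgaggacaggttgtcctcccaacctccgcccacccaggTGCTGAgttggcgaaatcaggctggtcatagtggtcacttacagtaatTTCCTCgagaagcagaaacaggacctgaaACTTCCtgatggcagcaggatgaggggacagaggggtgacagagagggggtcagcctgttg
Promoters of 8 of the 10 members were matched by symbol, and those of C1qc and Cd4 were not. GAGGAA stood in 4 of these 8, those of Marco, C1qb, Cd68 and Csf1r, and in 23.341% of all 33469 promoters searched. GGAAGT stood in 4 of 8, those of C1qa, C1qb, Cd68 and Clec4f, and in 19.218% of all. TGCTGA stood in 2 of 8, C1qa and C1qb, and in 15.139% of all. A match describes letters and does not mark a site in use.

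All values are log2 of the deposited intensity, so that a difference of 1 is a doubling. Each member had 1 probe set, and each exceeded the array's 25th percentile on all 9 arrays. Array 2 of the SHPC clusters and array 2 of the hepatocytes differed from the other 7 in overall shape: the median intensity was 23.0 to 24.1 on these 2, against 19.6 to 20.6 elsewhere, and the log2 values spread less, with an SD of 1.94 to 1.98 against 2.09 to 2.13. The comparisons below are therefore given with and without these 2 arrays. On SHPC array 2 all 10 members lay below the mean of SHPC arrays 1 and 3, by a median of 0.92, while 52.8% of all tested genes lay below and their median difference was -0.03. On hepatocyte array 2, 9 of 10 members lay below, by a median of 0.66, against 53.2% of all genes with a median of -0.03. On array 2 of the clusters with Thy1+ cells the 10 members differed from arrays 1 and 3 by a median of -0.04.

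**Figure D1:**
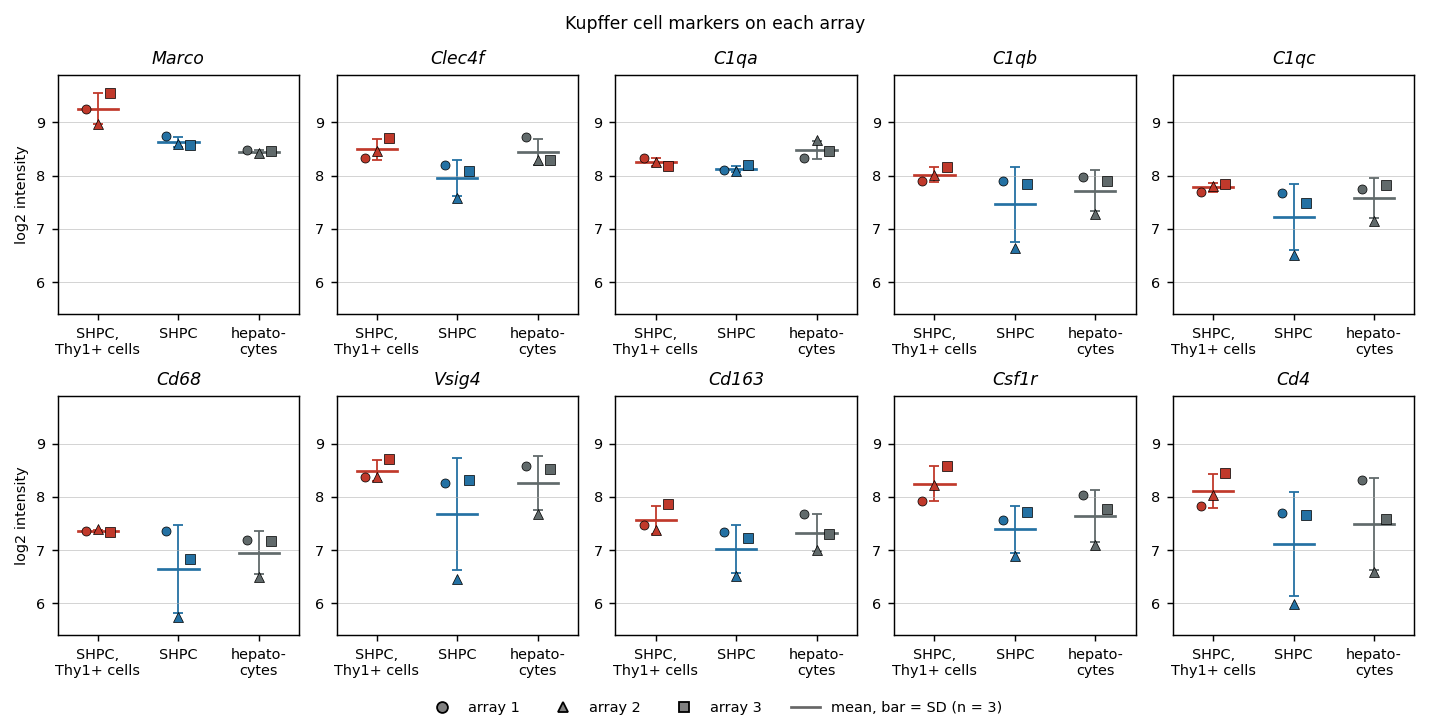
Log2 intensity of each of the 10 Kupffer cell markers on every array, with SHPC clusters of livers given Thy1+ cells at left, SHPC clusters in the middle and hepatocytes at right, and group means as lines with the SD (n = 3) as error bars. For 9 of the 10 genes the lowest point is SHPC array 2, and for Marco it is hepatocyte array 2.

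**Figure D2:**
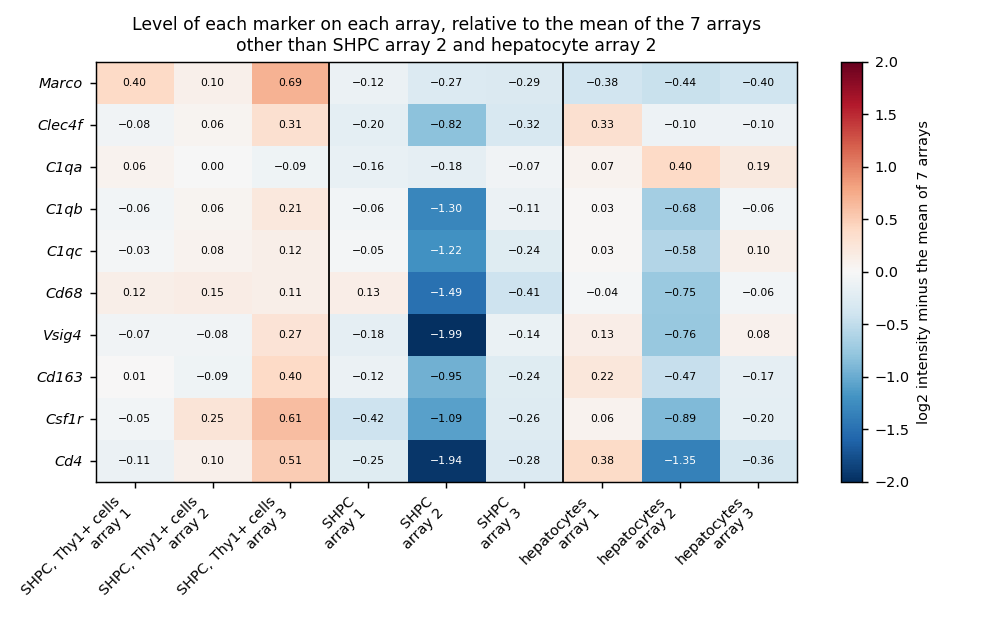
Difference of each member's log2 value on each array from its own mean over the 7 arrays other than SHPC array 2 and hepatocyte array 2, by member (rows) and array (columns). SHPC array 2 and hepatocyte array 2 are low for most rows, and Marco and C1qa are the rows that do not follow.

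Marco encodes a class A scavenger receptor with a collagen-like stem that binds bacteria and particles. Its log2 intensity (probe set 17867496) was 9.26, 8.96 and 9.55 in clusters with Thy1+ cells, 8.75, 8.59 and 8.57 in SHPC clusters and 8.49, 8.42 and 8.46 in hepatocytes. The 3 groups did not overlap: every cluster with Thy1+ cells lay above every SHPC cluster, and every SHPC cluster above every hepatocyte array. Of all genes 10.6% had the first separation and 2.72% the second, and the share with both was not counted. Array 2 lay close to arrays 1 and 3 in SHPC clusters, at 0.07 below their mean, and in hepatocytes, at 0.05 below. In clusters with Thy1+ cells array 2 lay 0.44 below that mean, the largest such difference of any member in that group.

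Clec4f encodes a C-type lectin of Kupffer cells that binds sugars on glycoproteins. Its log2 intensity (17792666) was 8.32, 8.46 and 8.72 with Thy1+ cells, 8.20, 7.58 and 8.08 in SHPC clusters and 8.73, 8.30 and 8.30 in hepatocytes; the last 2 arrays carried the same deposited intensity, 315. SHPC clusters were the lowest group and did not overlap either of the others. Cd163, the receptor that takes up haemoglobin bound to haptoglobin, had log2 intensities (17787031) of 7.47, 7.37 and 7.87 with Thy1+ cells, 7.34, 6.51 and 7.22 in SHPC clusters and 7.69, 7.00 and 7.29 in hepatocytes. Its values with Thy1+ cells lay above all SHPC clusters and overlapped hepatocytes. Vsig4 encodes a receptor for complement fragments on particles, and had log2 intensities (17877941) of 8.37, 8.37 and 8.71 with Thy1+ cells, 8.26, 6.46 and 8.31 in SHPC clusters and 8.57, 7.68 and 8.52 in hepatocytes. Vsig4 had the widest spread of any member in SHPC clusters, an SD of 1.06, and 1 array made it: array 2 lay 1.83 below the mean of the other two.

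The C1q molecule, which starts the classical complement pathway, is built from chains encoded by C1qa, C1qb and C1qc, neighbouring genes on chromosome 5 of GRCr8. C1qa had log2 intensities (17811640) of 8.33, 8.26 and 8.18 with Thy1+ cells, 8.11, 8.09 and 8.20 in SHPC clusters and 8.34, 8.67 and 8.46 in hepatocytes. SHPC clusters and hepatocytes did not overlap for C1qa. C1qb had log2 intensities (17811631) of 7.89, 8.01 and 8.16 with Thy1+ cells, 7.89, 6.65 and 7.84 in SHPC clusters and 7.98, 7.28 and 7.89 in hepatocytes, and 3 arrays, 1 from each group, carried the same deposited intensity of 238. C1qc had log2 intensities (17811636) of 7.69, 7.80 and 7.84 with Thy1+ cells, 7.68, 6.51 and 7.48 in SHPC clusters and 7.75, 7.14 and 7.82 in hepatocytes. Both C1qb and C1qc had their 2 lowest values on the 2 arrays that stood apart. C1qa was lowest on SHPC array 2 too, close to the other SHPC clusters, and highest on hepatocyte array 2.

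The chains thus parted by array rather than by group. Each chain has its own probe set, so their difference within an array has no absolute meaning, but it can be followed across arrays. C1qa minus C1qb was 0.44, 0.25 and 0.01 with Thy1+ cells, 0.22, 1.44 and 0.36 in SHPC clusters and 0.35, 1.39 and 0.56 in hepatocytes. C1qa minus C1qc was 0.64, 0.46 and 0.34 with Thy1+ cells, 0.43, 1.58 and 0.72 in SHPC clusters and 0.58, 1.53 and 0.63 in hepatocytes. On SHPC array 2 and hepatocyte array 2 both differences were at least 1.39, and on the other 7 arrays at most 0.72. C1qb minus C1qc stayed between 0.07 and 0.36 on all 9 arrays.

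**Figure D3:**
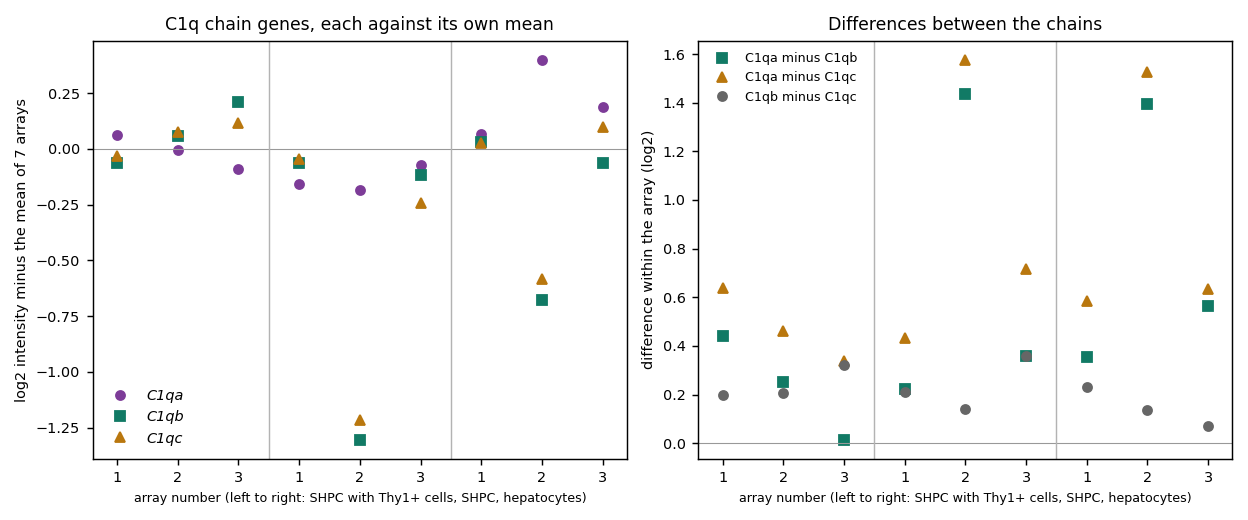
Left, log2 intensity of C1qa, C1qb and C1qc on each array minus the gene's own mean over the 7 arrays other than SHPC array 2 and hepatocyte array 2; right, differences between chains within each array, with groups from left to right as SHPC clusters with Thy1+ cells, SHPC clusters and hepatocytes. C1qa minus C1qb reaches 1.44 and 1.39 on array 2 of SHPC clusters and of hepatocytes, and at most 0.56 on the other arrays.

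Cd68 encodes a glycoprotein of macrophage lysosomes. Its log2 intensity (17657767) was 7.35, 7.39 and 7.35 with Thy1+ cells, 7.36, 5.74 and 6.82 in SHPC clusters and 7.19, 6.49 and 7.18 in hepatocytes. The clusters with Thy1+ cells had the narrowest spread of any member in that group, an SD of 0.02, and lay above all 3 hepatocyte arrays, while SHPC array 1 lay level with them. Csf1r encodes the receptor for the macrophage growth factor CSF-1 and for interleukin 34. Its log2 intensity (17723614) was 7.92, 8.23 and 8.59 with Thy1+ cells, 7.56, 6.89 and 7.72 in SHPC clusters and 8.04, 7.09 and 7.78 in hepatocytes, with all clusters that had Thy1+ cells above all SHPC clusters.

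Cd4 encodes the co-receptor of helper T cells, which rat macrophages also carry. Its log2 intensity (17794897) was 7.83, 8.04 and 8.45 with Thy1+ cells, 7.69, 5.996 and 7.66 in SHPC clusters and 8.31, 6.59 and 7.58 in hepatocytes. Clusters with Thy1+ cells lay above all SHPC clusters and overlapped hepatocytes, in which the 3 arrays spread over an SD of 0.87. Of 23 T and NK cell markers measured, 17 exceeded the array's 25th percentile on all 9 arrays, 3 on some and 3 on none. Among genes of the T-cell receptor complex, named here after their values were seen, Cd3d exceeded the array's 25th percentile on 0 of 9 arrays (log2 2.58 to 2.89), Cd3g on 2 (2.48 to 3.18) and Cd3e (3.13 to 3.85) and Cd247 (4.69 to 5.47) on all 9. The summed intensity of T and NK cell markers was 436 to 459 with Thy1+ cells, 422 to 486 in SHPC clusters and 430 to 491 in hepatocytes. With Thy1+ cells against SHPC clusters 6 of the 19 tested had a positive change, with a median of -0.05, and without the 2 arrays 11 had, with a median of 0.07. Il7r, the brightest, had log2 intensities of 6.16, 6.21 and 5.99 with Thy1+ cells and of 5.97, 4.70 and 5.53 in SHPC clusters. Its change of 0.72, or 0.37 without the 2 arrays, was the largest of the list. It was the 1 of 19 that lay entirely above, against 10.6% of all genes. The part of T and NK cells in the differences of Cd4 was not tested.

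By group mean, 8 of the 10 members were ordered clusters with Thy1+ cells, then hepatocytes, then SHPC clusters. Marco was ordered clusters with Thy1+ cells, SHPC clusters, hepatocytes, and C1qa hepatocytes, clusters with Thy1+ cells, SHPC clusters. Without the 2 arrays that stood apart, the first order was left for 5 members, and hepatocytes led for 4, namely C1qa, Clec4f, C1qc and Vsig4. SHPC clusters were lowest for 9 of 10 members either way.

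The first comparison asks how SHPC clusters of livers given Thy1+ cells differ from those of livers without transplantation. All 10 members had a positive change, with a median of 0.59 on the log2 scale, while 53% of all tested genes were positive with a median of 0.02. No member passed limma's adjusted p of 0.05, which 0.00633% of all genes did (1 gene), and 3 members, Marco, Clec4f and Csf1r, had an unadjusted p under 0.05 in the higher direction, against 5.07% of all genes. In 7 members the clusters with Thy1+ cells lay entirely above the SHPC clusters, against 10.6% of all genes; C1qa, C1qb and Cd68 overlapped. The changes of largest size were Cd4 at 0.99 (95% interval -0.13 to 2.12, adjusted p in limma 0.705) and Csf1r at 0.86 (0.21 to 1.51, adjusted p in limma 0.531). Marco had 0.62 (0.27 to 0.98, adjusted p in limma 0.342). The smallest was C1qa at 0.13 (-0.16 to 0.42, adjusted p in limma 0.779). Clec4f averaged 8.50 ± 0.20 with Thy1+ cells and 7.95 ± 0.33 in SHPC clusters (SD, n = 3 each), a change of 0.54.

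Much of the size rested on SHPC array 2. Without it and hepatocyte array 2 the median change of the members was 0.28 and that of all genes 0.01, with all 10 members still positive and 7 still apart, against 51.6% and 15.2% of all genes. Vsig4 shrank to 0.20, against 0.81 with all arrays, C1qb to 0.16 against 0.56, and Cd4 to 0.43 against 0.99. Marco kept 0.60 (0.21 to 0.99, adjusted p in limma 0.252) and Csf1r 0.61 (0.17 to 1.05, adjusted p in limma 0.305), and these 2 were the members with an unadjusted p under 0.05, against 6.32% of all genes in that direction; none passed the adjusted threshold, which 0.146% of all genes did.

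**Figure D4:**
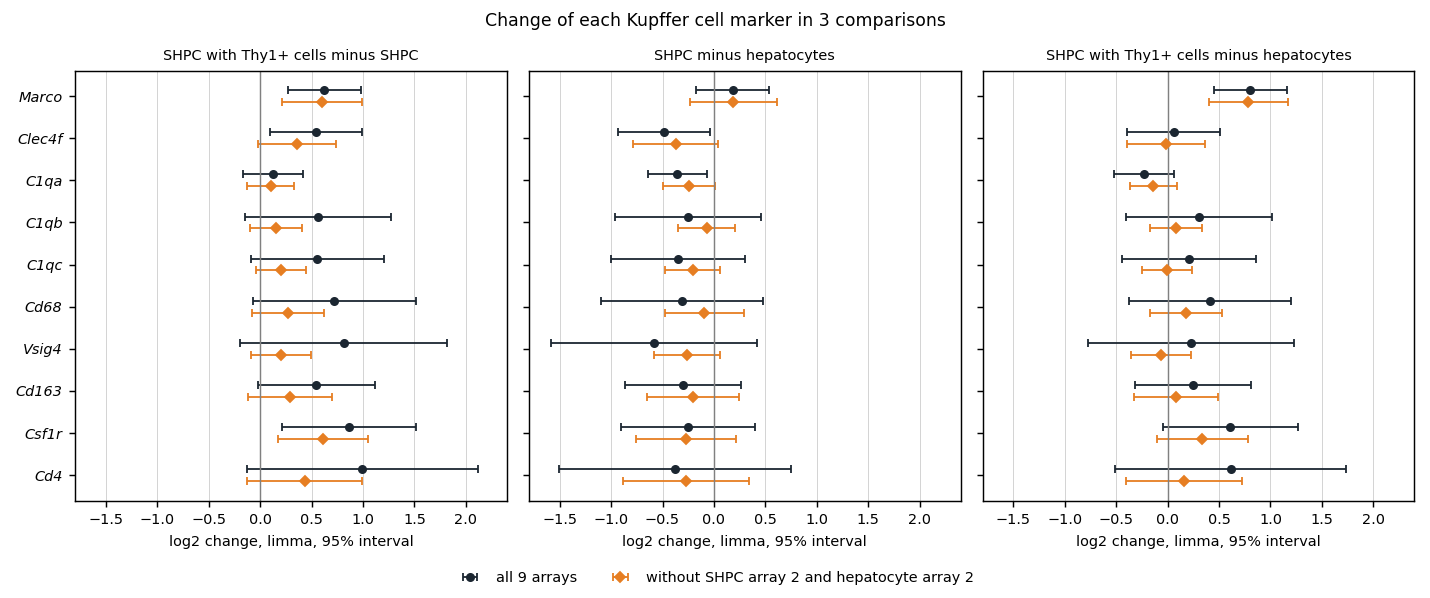
Log2 change of each member in the 3 comparisons, clusters with Thy1+ cells minus SHPC clusters, SHPC clusters minus hepatocytes and clusters with Thy1+ cells minus hepatocytes, with 95% limma intervals, for all arrays and without SHPC array 2 and hepatocyte array 2. With all arrays, Marco at 0.80 is the member whose interval in clusters with Thy1+ cells minus hepatocytes lies wholly above 0.

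The second comparison asks how SHPC clusters differ from neighbouring hepatocytes where no cells had been transplanted. The change was negative for 9 of 10 members, with a median of -0.33, while 51.4% of all genes were negative with a median of -0.01. No member passed limma's adjusted p, against 0.0633% of all genes, and 2 had an unadjusted p under 0.05 in the lower direction, Clec4f at -0.49 (-0.94 to -0.04) and C1qa at -0.36 (-0.65 to -0.06), against 1.81% of all genes, and none in the higher direction, against 2.31%. These 2 were also the members whose SHPC clusters lay entirely below hepatocytes (2.49% of all genes), and Marco, at 0.18 (-0.17 to 0.53), was the member that lay entirely above (2.72%). Equal array numbers deviated together in these 2 groups, and with the array number as a block no member passed either.

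Without the 2 arrays the members' median was -0.22, with 9 of 10 still negative, against 50.2% of all genes, and no member passed the adjusted threshold, which 0.304% of all genes did. Clec4f, C1qa, C1qc, Vsig4 and Csf1r then lay entirely below hepatocytes, against 14.4% of all genes, and Marco entirely above, against 15.3%. Leaving out SHPC array 2 alone brought the median to 0.02 and leaving out hepatocyte array 2 alone to -0.53, so the size of this difference rested on which of these arrays was present.

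The third comparison sets clusters with Thy1+ cells against hepatocytes of livers without transplantation. These groups differ both in region and in transplantation, which this comparison alone cannot tell apart. Marco averaged 9.26 ± 0.30 with Thy1+ cells and 8.45 ± 0.03 in hepatocytes (SD, n = 3 each). The log2 change was 0.80 with an SE of 0.16 and a 95% interval of 0.45 to 1.16, which is 1.75-fold (adjusted p in limma 0.0456). Every array with Thy1+ cells lay above every hepatocyte array for Marco, at deposited intensities of 612, 499 and 751 with Thy1+ cells and of 359, 342 and 352 in hepatocytes. Marco was 1 of 10 members called, against 1.18% of all genes in either direction and 0.861% in the higher one. Of the 10 members 9 had a positive change, with a median of 0.28, while 49.7% of all genes were positive with a median of -0.00. Marco and Cd68 lay entirely above hepatocytes (12.6% of all genes) and C1qa entirely below (6.64%). The other 9 members had changes between C1qa at -0.23 (-0.52 to 0.06) and Cd4 at 0.61 (-0.51 to 1.74), none with an unadjusted p under 0.05, which 7.07% of all genes had in the higher direction and 3.32% in the lower.

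Without the 2 arrays that stood apart, Marco kept 0.79 (0.40 to 1.17, adjusted p in limma 0.0480), while 3.64% of all genes were called, 2.56% in the higher direction. Of the 10 members 6 were then positive, against 49.7% of all genes, the median of all 10 was 0.08, and Clec4f, C1qc and Vsig4 turned negative at -0.01, -0.01 and -0.06. Marco's call was close to the threshold: 6 of 21 alternatives kept it and 15 lost it. The adjusted p in limma was 0.0951 with each array centred on its median, 0.146 with renewed quantile normalization, 0.198 with cyclic loess, 0.0503 with no filter on dim genes, 0.136 with every probe set tested, 0.0602 with only the 2 groups in the fit and 0.0968 with a trended robust prior. It was 0.203 without array 1 of the clusters with Thy1+ cells, 0.193 without array 3 and 0.0612 without array 2, 0.110, 0.142 and 0.157 without hepatocyte array 1, 2 and 3, and 0.0643 and 0.0747 without SHPC array 1 and 3, while without SHPC array 2 it was 0.0257, at a change of 0.66 to 0.95 over all fits that left out 1 array.

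The members' log2 values followed each other on most arrays. Over the 9 arrays the 45 pairs had a median Pearson r of 0.84, the lowest being -0.36 for Marco and C1qa and the highest 0.98 for C1qb and Vsig4. Over the 7 arrays without the 2 that stood apart the median was 0.59, the lowest again Marco with C1qa at -0.34 and the highest Clec4f with Cd4 at 0.94. Each member was also set against the mean of all 10, itself included, so its r is partly built in. With each centred on its own mean, Marco had an r of 0.55 and C1qa of 0.03 over 9 arrays, and the other 8 had 0.89 to 0.98. Over the 7 arrays Marco had 0.72, C1qa -0.01 and the other 8 from 0.59 (Cd68) to 0.95 (C1qb), so only C1qa then lay outside the range of the rest. These arrays share their groups and, for the 2 that stood apart, a lower contrast, so the correlations describe the arrays.

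Of the remaining genes, the 5 with the pattern most like that of the members' mean over 9 arrays were Adgre4 (r 0.990), Pdcd4 (0.987), Cd53 (0.986), Il13ra1 (0.985) and Ccl6 (0.985). Over the 7 arrays they were Ano6 (0.980), Ppt1 (0.972), Sh2d1b (0.970), Bcar3 (0.959) and Mlkl (0.959), so no gene was among the 5 both times.

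Other macrophage genes were measured beside the members. Of 29 further macrophage markers 26 had a positive change in clusters with Thy1+ cells against SHPC clusters, with a median of 0.38, and none passed the adjusted threshold in limma. Of the 29, 15 lay entirely above, against 10.6% of all genes, and 7 had an unadjusted p under 0.05 in that direction, against 5.07%. Timd4, a receptor for dying cells on resident macrophages, had log2 intensities of 7.04, 7.11 and 7.25 with Thy1+ cells and of 6.60, 5.64 and 6.22 in SHPC clusters, a change of 0.98 ± 0.27 (SE, adjusted p in limma 0.401). Its groups did not overlap, and without the 2 arrays the change was 0.72. Cd5l, a protein secreted by tissue macrophages, differed by 0.67 (0.46 without the 2 arrays), Tlr4, the receptor for bacterial lipopolysaccharide, by 0.49 (0.39) and Slc40a1, the iron exporter ferroportin, by 0.92 (0.34). Without the 2 arrays the median of the 29 was 0.19, with 25 positive.

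Among 10 transcription regulators of Kupffer cells, 6 were positive with a median of 0.16 in the same comparison, against 53% of all genes. Without the 2 arrays 7 were, with a median of 0.04, against 51.6%. With all arrays 4 of the 10 lay entirely above, against 10.6% of all genes, and 1 entirely below, against 826 of 15793 genes. In limma 3 had an unadjusted p under 0.05 in the higher direction, against 5.07%, and 1 in the lower, against 361 of 15793 genes. Spi1, which encodes PU.1, had log2 intensities of 6.01, 6.17 and 6.31 with Thy1+ cells and of 5.72, 5.20 and 5.87 in SHPC clusters, a change of 0.57 (adjusted p in limma 0.478) with all 3 above; without the 2 arrays it was 0.37. Id3 differed in the other direction by -0.51 (-0.49 without the 2 arrays), Tfec by 0.63 (0.46) and Nr1h3 by 0.29 (0.09), none past the adjusted threshold. Of 11 Fc, complement and lectin receptor genes all were positive with a median of 0.44, against 53% of all genes. Among the 11 were the integrin chains Itgb2 at 0.51 and Itgam at 0.46 and the Fc receptor chain Fcer1g at 0.59. Of these, 9 were positive without the 2 arrays, with a median of 0.19, and Itgb2 had 0.41, Itgam 0.53 and Fcer1g 0.30. Of 11 markers of recruited monocytes 7 were positive with a median of 0.10, and 5 with a median of -0.01 without the 2 arrays. With all arrays 2 of the 11 had an unadjusted p in limma under 0.05 in the higher direction, against 5.07% of all genes. Without the 2 arrays 2 had, against 6.32%. Plac8, the brightest, differed by 0.71. The summed intensity of the 13 markers measured was 766 to 826 with Thy1+ cells, 432 to 735 in SHPC clusters and 510 to 679 in hepatocytes. Without the 2 arrays it was 704 to 735 and 675 to 679 in the last 2 groups. The lists share genes and are not independent of each other. Fcgr1a and Fcer1g are both receptor genes and further macrophage markers, and Itgam and Itgax both receptor genes and markers of recruited monocytes. Slc40a1 and Hmox1 stand among the further macrophage markers and the genes of haemoglobin and iron handling.

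Partners of C1q in the complement cascade are largely made by hepatocytes. All 6 that were measured had a positive change in clusters with Thy1+ cells against SHPC clusters, with a median of 0.31, and 5 lay entirely above, against 10.6% of all genes. Leaving out the 2 arrays, 5 were positive, with a median of 0.21, and 5 lay entirely above, against 15.2%. C1s, a protease of the C1 complex, had log2 intensities of 10.006, 10.001 and 10.236 with Thy1+ cells and of 9.57, 9.11 and 9.12 in SHPC clusters, a change of 0.82 (adjusted p in limma 0.198), or 0.74 without the 2 arrays. C1r, the other protease of the complex, differed by 0.42 (0.33 without the 2 arrays), C4bpa by 0.47 (0.41) and C3 by 0.16 (0.08). The hepatocyte markers differed by a median of 0.11, or 0.03 without the 2 arrays, with Alb, the albumin gene, at 0.05 and 0.01.

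**Figure D5:**
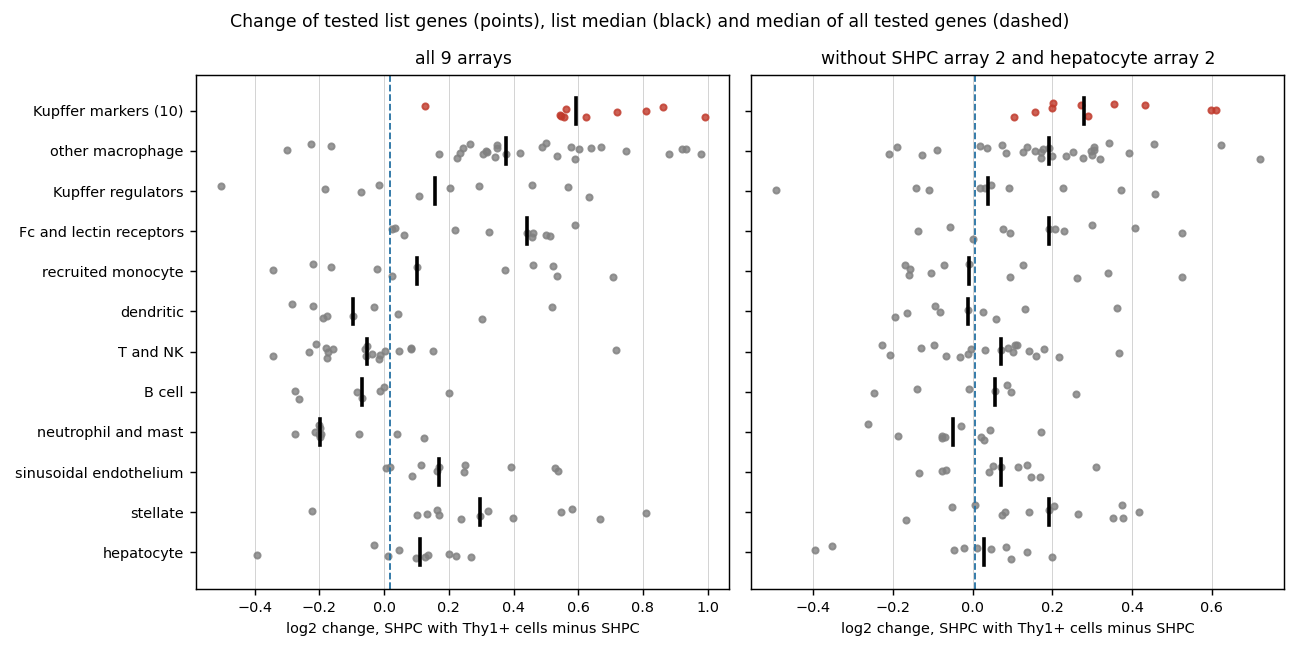
Log2 change of clusters with Thy1+ cells against SHPC clusters for the members and lists of other macrophage, regulator, receptor and cell type genes, with a point for each tested gene, the list median in black and the median of all tested genes dashed, for all arrays and without SHPC array 2 and hepatocyte array 2. The Kupffer cell members have a median of 0.59 with all arrays and 0.28 without the 2 arrays.

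Markers of other cells that a section can hold were read beside the members. In clusters with Thy1+ cells against SHPC clusters the median change was 0.17 for sinusoidal endothelium, 0.30 for stellate cells, -0.05 for T and NK cells, -0.07 for B cells, -0.10 for dendritic cells and -0.20 for neutrophils and mast cells. Without the 2 arrays it was 0.07 for sinusoidal endothelium, 0.19 for stellate cells, 0.07 for T and NK cells, 0.06 for B cells, -0.01 for dendritic cells and -0.05 for neutrophils and mast cells, so that T and NK cells and B cells turned positive. With all arrays 11 of 11 endothelial and 12 of 13 stellate genes were positive, against 53% of all genes. Of B cell genes 1 of 7 was, of dendritic cell genes 3 of 9 and of neutrophil and mast cell genes 2 of 10. Entirely above lay 1 of 11 endothelial and 5 of 13 stellate genes, against 10.6% of all genes. Without the 2 arrays 8 of 11 endothelial and 11 of 13 stellate genes were positive, against 51.6%. On SHPC array 2 the median difference from SHPC arrays 1 and 3 was -0.42 for sinusoidal endothelium, -0.47 for stellate cells and -0.22 for hepatocyte genes, against 0.29 for T and NK cells and 0.31 for neutrophils and mast cells. The last 2 lists were dim there, with a median log2 of 4.24 and 3.78 and the array's 25th percentile at 3.14. Sinusoidal endothelium had 5.90, stellate cells 5.49, hepatocyte genes 11.87 and the members 6.58. Of all tested genes 52.8% were lower on this array. The part of brightness in these differences, and of the other cells in the members' differences, was not tested. The summed intensity of the 10 members was 2843 to 3529 with Thy1+ cells, 1454 to 2472 in SHPC clusters and 2016 to 2890 in hepatocytes, and that of the 29 further macrophage markers was 4079 to 4471 with Thy1+ cells, 2018 to 3644 in SHPC clusters and 2821 to 4222 in hepatocytes. The members' sum without the 2 arrays was 2345 to 2472 in SHPC clusters and 2563 to 2890 in hepatocytes, and that of the further macrophage markers 3504 to 3644 in SHPC clusters and 3525 to 4222 in hepatocytes.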

How the data were processed

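RNA of the microdissected regions was measured on whole-transcript arrays. The deposited table holds a linear intensity for 36685 probe sets per array, made with RMA per the submitters' processing notes; the sources used here do not give its version. The log2 was taken here. Of the 18166 genes, each represented by its brightest probe set, 15793 exceeded the array's 25th percentile on at least 3 of 9 arrays and were tested. A single fit of 3 group means (limma 3.58.1 in R 4.3.3, eBayes, 6 residual degrees of freedom) gave changes and p-values, adjusted by Benjamini-Hochberg over all genes at 0.05. It was also run on simulated arrays, with added changes larger than any member's in the main fit. The simulated arrays held no shared animals and no arrays of low contrast, so that run does not cover these features. Precision is limited by having 3 arrays per group; whether regions are separate animals is not given, so p-values may measure technical spread.

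The members and lists were chosen with earlier results of these data known, and lists are given as counts and medians with no test. All members are named; other lists name up to 3 genes of smallest unadjusted p between the 2 SHPC groups and the brightest gene, and the genes of most similar pattern are the 5 of highest correlation. Alternatives were other scalings, filters, probe sets, weights, variance priors, replicate blocks and left-out arrays. Deviations of equally numbered arrays correlated at 0.526, 0.705 and 0.341 between SHPC clusters and hepatocytes, all above 0.1. Between the other groups and clusters with Thy1+ cells they correlated at -0.094 to 0.002. The numbers were therefore taken as a possible pairing of SHPC clusters and hepatocytes only. Both arrays that stood apart carry number 2, and deviations were taken from the group mean. The correlations therefore cannot tell a shared animal from the low contrast of these 2 arrays.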

Additional observations from a re-analysis of the deposited data

How the results depend on the processing

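In clusters with Thy1+ cells against hepatocytes the count of members passing limma's adjusted threshold was 1, Marco, and became 0 with median centring, renewed quantile normalization, cyclic loess, no filter on dim genes, every probe set tested, only the 2 groups compared in the fit, and a trended robust prior; leaving out 1 array gave 0 to 1. Marco's change lay between 0.61 and 0.95 throughout, and the cause of its lost calls was not tested. With the replicate block the count stayed 1 there and 0 in the other comparisons. In SHPC clusters against hepatocytes, where equal numbers deviated together, the count over all genes was 35 with the block and 10 without it. A block fit of these 2 groups alone, added after the data were seen, gave 76 genes in all and 0 members. In the other 2 comparisons 0 members passed under every alternative run. The members' median change lay between 0.28 and 0.78 in clusters with Thy1+ cells against SHPC clusters, between -0.53 and 0.02 in SHPC clusters against hepatocytes, and between 0.08 and 0.43 in clusters with Thy1+ cells against hepatocytes. Median centring added 0.10 to the first and 0.09 to the last over all genes. Genes called in all ranged from 0 to 259, from 0 to 375 and from 31 to 2685 in the 3 comparisons, the highest with array weights, against 1, 10 and 186.

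Single members changed sign as follows. Clusters with Thy1+ cells minus SHPC clusters gave C1qa -0.053 with quantile normalization and -0.10 with cyclic loess. SHPC clusters minus hepatocytes gave Cd4 0.0041 with array weights, and leaving out 1 array gave C1qb -0.48 to 0.15, C1qc -0.58 to 0.0077, Cd68 -0.67 to 0.14, Vsig4 -0.90 to 0.024, Csf1r -0.52 to 0.00056 and Cd4 -0.83 to 0.18. Clusters with Thy1+ cells minus hepatocytes gave Clec4f -0.10 with quantile normalization, -0.12 with cyclic loess and -0.015 without SHPC array 2 and hepatocyte array 2, C1qc -0.0051 and Vsig4 -0.018 with array weights, and C1qc -0.0089 and Vsig4 -0.063 without these 2 arrays. Leaving out 1 array there gave Clec4f -0.051 to 0.20, C1qc -0.0089 to 0.33 and Vsig4 -0.063 to 0.38. Many deposited intensities recur on several arrays, in 8202 of the tested genes, which can lower the spread.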

Other observations

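Hepatocyte array 2 differed from hepatocyte arrays 1 and 3 by a median of -0.23 in the 29 further macrophage markers, with 26 lower, of -0.42 in sinusoidal endothelial markers, with 9 of 11 lower, and of 0.34 in neutrophil and mast cell markers, with 0 of 10 lower. On SHPC array 2 the same lists differed by a median of -0.69, -0.42 and 0.31, with 25 of 29, 10 of 11 and 3 of 10 lower. Array 2 of the clusters with Thy1+ cells differed by -0.02, 0.11 and -0.06 in these lists. Of all tested genes 53.2% were lower on hepatocyte array 2 and 52.8% on SHPC array 2. Neutrophil and mast cell markers were dim, with a median log2 of 3.89 on hepatocyte array 2, where the 25th percentile was 3.08. The further macrophage markers had 6.23 there and the endothelial markers 6.08. The part of brightness in these differences was not tested.

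In clusters with Thy1+ cells against hepatocytes, 1 of 11 genes of haemoglobin and iron handling passed limma's adjusted threshold. Of all genes 1.18% did, 0.861% in the higher direction. The gene was Tfrc, which encodes the transferrin receptor, at a log2 change of 1.18 (adjusted p in limma 0.0426). Without SHPC array 2 and hepatocyte array 2, Tfrc had 1.05 and the biliverdin reductase gene Blvrb passed at -0.55, and in other lists Cd14, a macrophage co-receptor for lipopolysaccharide, passed at 0.72 the monocyte marker Plac8 at 0.47 and the cholangiocyte markers Epcam at 1.08 and Krt19 at 0.63, while 3.64% of all genes were called. Tfrc, Blvrb, Cd14 and Krt19 are named after their values were seen. Of 10 ligand genes of neighbouring cells that keep or attract Kupffer cells, none passed in limma in any comparison. In clusters with Thy1+ cells against SHPC clusters 0 had an unadjusted p under 0.05, against 800 higher and 361 lower genes of all 15793. In SHPC clusters against hepatocytes 1 had, in the lower direction, against 1.81% of all genes. In clusters with Thy1+ cells against hepatocytes 1 had, also lower, against 3.32%. The median change of these ligand genes was 0.01 in clusters with Thy1+ cells against SHPC clusters and -0.04 in SHPC clusters against hepatocytes. Without these 2 arrays it was 0.02 and -0.05. The 7 cholangiocyte markers had a median change of 0.16 in SHPC clusters against hepatocytes, all positive, and 5 of 7 positive without these 2 arrays, with a median of 0.31.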
